A study of Mus musculus with 6 samples.

Results

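The hypoxia-inducible factor (HIF) pathway was described here through 33 genes, which encode the HIF subunits, the enzymes that control them and a set of known HIF targets other than glycolytic enzymes. They were chosen by name, with earlier results of these data known, and 32 of them are among the 21689 protein-coding genes for which promoter H3K4me3 could be read. For the other, Bnip3l, the start is not known. All 33 were found by symbol and Entrez identifier in a RefSeq table of assembly GRCm38.p6. The choice followed H3K4me3 values at these promoters in both genotypes, so those values are given as a description and support no further statement.

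The cells were natural killer (NK) cells, cytotoxic lymphocytes, from mouse spleen. The KO group came from Tcf7-/- mice (strain B6.129 Tcf7Tm1Cle), which carry no intact Tcf7, the gene for the transcription factor Tcf1. The WT group came from Tcf7+/+ mice (strain B6). Both groups were grown for 5 days in IL-2 at 500 ng/mL, a cytokine that activates and expands NK cells, and the labels give no age, oxygen level or number of animals. Chromatin immunoprecipitation (ChIP) with sequencing used an antibody against H3K4me3, a histone modification found at active promoters, or against Tcf1. With 1 library for each genotype and antibody, the differences have no replicate to check them and no p-value could be computed. Strain and genotype cannot be told apart.

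HIF is a pair of proteins, an alpha subunit that oxygen destabilises and a partner that is always present. With oxygen, prolyl hydroxylases mark the alpha subunit for the Vhl ubiquitin ligase, which sends it to the proteasome, and a further hydroxylase blocks its transcriptional activity. When oxygen is low, or when growth factor and cytokine signals raise alpha subunit synthesis, HIF binds short motifs near its targets. These targets include glucose transporters, glycolysis regulators, mitophagy receptors and angiogenic factors. Activated lymphocytes are known to use this pathway during their metabolic switch to glycolysis.

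In KO, H3K4me3 was called in 11074 peaks, with 7507763 tags (reads in peaks) and a mean of 298.8 tags per kb. In WT it was called in 13771 peaks, with 6635272 tags and a mean of 218.6 tags per kb. The median fold enrichment over the peak caller's background, an authors' value, was 18.4 in KO and 30.8 in WT. Library depths are unknown here. All 10 NK cell markers examined were marked by H3K4me3 in both genotypes. Among them, Klrd1 held 236 tags in KO and 452 in WT, and Gzmb held 1842 in KO and 1022 in WT. Called peaks covered 2250 bp in KO and 6332 bp in WT at Klrd1, and 3856 bp in KO and 3757 bp in WT at Gzmb. None of 6 B cell markers was marked. Of 8 T cell markers, Cd28 was marked in both genotypes (161 tags in KO and 276 in WT), and Cd3e (64 tags) and Cd3d (35 tags) in WT alone, while Cd3g, Cd4, Cd8a, Cd8b1 and Cd5 had no peak. Of 8 myeloid markers, Itgax was marked in both and Cd14 in WT alone (95 tags). Of 8 erythroid and endothelial markers, Klf1 and Pecam1 were marked in both and Epor in WT alone (56 tags). The 4 Y-linked genes Ddx3y, Eif2s3y, Uty and Kdm5d were marked in KO alone, with 48 to 116 tags. The sex of the animals is not given, and it cannot be told apart from genotype. The part of these marks in the results below was not tested.

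A gene was called marked when an H3K4me3 peak lay within 1 kb of an annotated transcription start site (TSS), and the tags of such peaks were summed. Log2 ratios (KO over WT) were set relative to the median gene with a mark in each library, which lay at 0.26 before centring. Over those 10349 genes the centred ratio had a standard deviation of 0.30. A difference was called when the ratio lay beyond 0.5 in size and 1 or both libraries had 100 tags or more. Intervals are 95% exact intervals that cover counting error only.

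Promoter H3K4me3 was lower in KO than in WT past the threshold at 12 of the 22 HIF targets marked in both genotypes and higher past it at none, with Ak4, Vegfa and Slc16a3 lowest. None of the 6 genes for HIF subunits, Vhl and hydroxylases that were marked in both was past the threshold in either direction, whereas Egln3 and Epas1 had a peak in WT alone. Of the 33 genes, 28 had a peak in both genotypes, 3 had 1 in WT alone, 0 had 1 in KO alone, 1 had none, and the start of 1 was not known. Over all genes the shares were 47.7% for both, 6.01% for WT alone, 0.166% for KO alone and 46.1% for none. Among genes with at least 200 tags in WT, 3 of 28 HIF pathway genes were marked in WT alone, against 0.915% of all such genes. Of the 28 marked in both, 12 lay below -0.5 and 0 above 0.5, where the shares over all 10265 genes tested were 6.39% and 1.26%. Below -1 there were 6, with a share of 1.38% over all genes. With 500 or more tags in WT, 11 of 22 HIF pathway genes lay below -0.5, against 3.09% of all such genes. Since the genes were chosen with these ratios known, nothing is read from the gaps between these shares. The median ratio was -0.38 over the 28 genes, and 0 over all genes by construction.

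**Figure D1:**
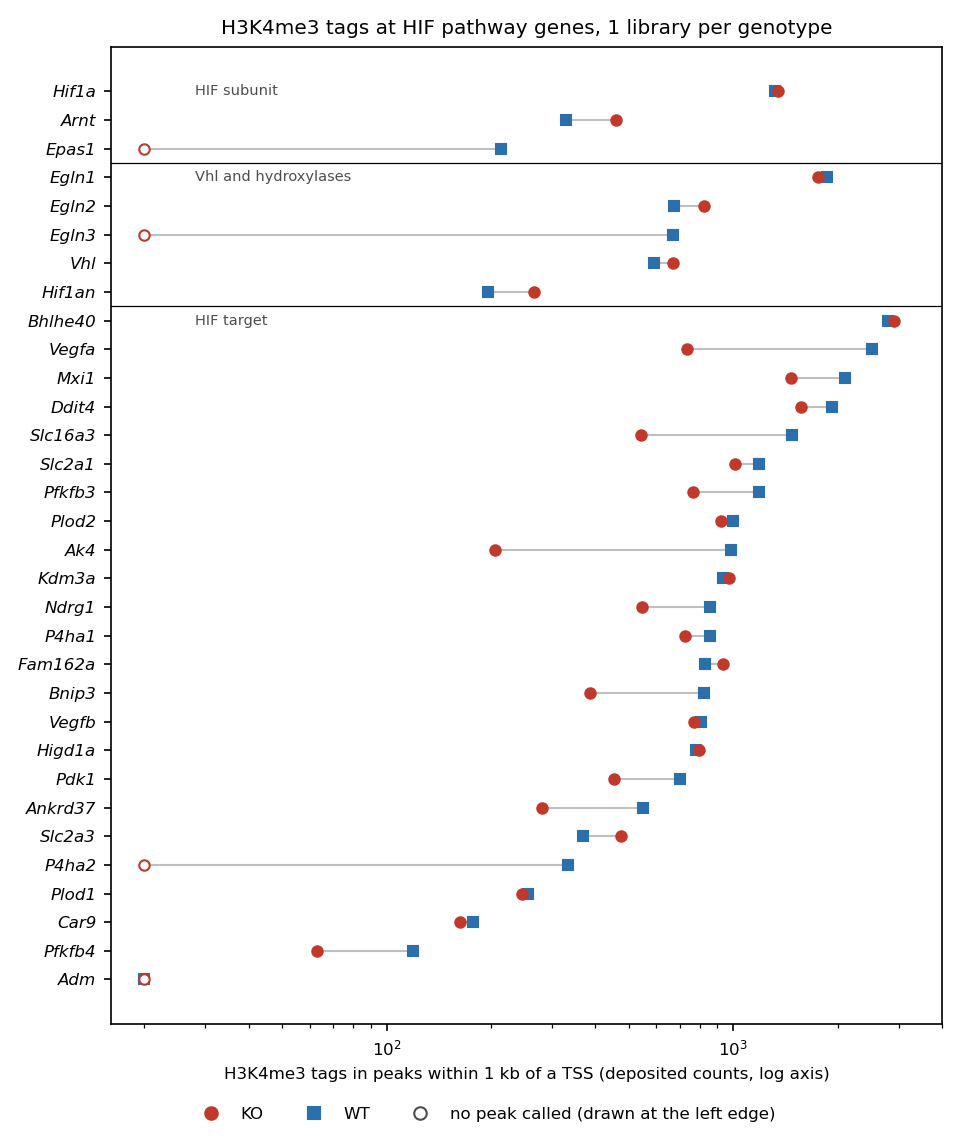
H3K4me3 tags summed over peaks within 1 kb of a TSS (horizontal log axis) for the 32 genes whose start is known, grouped by role, with 1 library each for KO (circles) and WT (squares). Open symbols at the left edge stand for no called peak. Epas1, Egln3 and P4ha2 have no KO peak, Adm has none in either genotype, and Ak4, Vegfa and Slc16a3 have the widest gaps among genes with both.

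Of the 3 genes for HIF subunits, Hif1a and Arnt were marked in both genotypes and Epas1 in WT alone. Hif1a, which encodes the oxygen-regulated HIF-1 alpha subunit, held 1346 tags in KO and 1316 in WT, a centred ratio of -0.23 (interval -0.34 to -0.12). Arnt, which encodes the constant partner, held 460 tags in KO and 329 in WT, a ratio of 0.22 (interval 0.01 to 0.43). Both ratios were smaller than the spread over all genes. Epas1, which encodes the HIF-2 alpha subunit, had no peak in KO and a peak of 214 tags over its TSS in WT (chromosome 17, 86752629 to 86754964). That peak was weak for the WT list, where it ranked 8937 of 13771 by tags. The peak with the fewest tags in the KO list held 22, but a KO region of 101 tags inside Pfkfb3 had a false discovery rate of 22.4%. The minimum therefore does not show whether a peak as weak as that of Epas1 would be called in KO.

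Among Vhl and the hydroxylases, Egln3 stood apart. Egln3 encodes a prolyl hydroxylase that is itself a HIF target. It had no peak in KO and a peak of 670 tags over 3710 bp in WT (chromosome 12, 54200624 to 54204333), which reached 3236 bp into the gene. No H3K4me3 peak of the KO list lay in Egln3 or within 20 kb of it. Egln1, the main oxygen-sensing prolyl hydroxylase and also a HIF target, held 1754 tags in KO and 1863 in WT (-0.35, interval -0.44 to -0.26). Its WT peak ranked 214 by tags. The remaining genes of this group lay near the median gene. Egln2, a prolyl hydroxylase that is not known to follow HIF, held 824 tags in KO and 673 in WT (0.03). Vhl, the substrate receptor of the ubiquitin ligase, held 671 in KO and 589 in WT (-0.07, interval -0.24 to 0.09). Hif1an, the asparagine hydroxylase that blocks HIF activity, held 266 in KO and 196 in WT (0.18, interval -0.09 to 0.45). None of the 6 machinery genes marked in both was called.

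Among targets, Ak4, Vegfa and Slc16a3 had the lowest ratios. Ak4, a mitochondrial adenylate kinase, held 205 tags in KO and 988 in WT, a ratio of -2.53 (interval -2.76 to -2.31). Its KO peak had a false discovery rate (FDR) of 1.10% in the authors' list and its WT peak one of 0.02%. Ak4 was the 4th lowest of 10265 genes by tags and the lowest of them per kb of peak, at 107 tags per kb in KO and 374 in WT. Vegfa, the main angiogenic growth factor, held 733 tags in KO and 2511 in WT (-2.04, interval -2.16 to -1.92). In WT its peak ranked 55 of 13771 by tags, and the gene was the 10th lowest by ratio. Slc16a3, which encodes the lactate exporter of glycolytic cells, held 543 tags in KO and 1479 in WT (-1.71, interval -1.85 to -1.57). It had 157 tags per kb in KO and 320 in WT. These 3 promoters stayed below -1 per kb, at -2.13, -1.22 and -1.35.

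P4ha2 was the target marked in WT alone. It encodes a catalytic subunit of collagen prolyl hydroxylase, and it had no peak in KO and 333 tags in WT (chromosome 11, 54100178 to 54102015). Its paralog P4ha1 held 724 tags in KO and 854 in WT (-0.50, interval -0.65 to -0.36), just past the threshold. Slc2a1, the main glucose transporter of activated lymphocytes, lay just short of it at -0.49, with 1014 tags in KO and 1190 in WT.

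A further 6 targets lay below -0.5 with 1 peak each. Bnip3, a mitophagy receptor of the outer mitochondrial membrane, held 387 tags in KO and 821 in WT (-1.35, interval -1.53 to -1.17). Ankrd37, an ankyrin repeat protein, held 281 in KO and 549 in WT (-1.23, interval -1.44 to -1.02). Pfkfb4, which makes and removes the sugar phosphate that activates phosphofructokinase, held 63 in KO and 119 in WT (-1.18, interval -1.64 to -0.73). This was the weakest of the called promoters, and its KO peak had an FDR of 7.93%. Ndrg1, a stress-response gene, held 544 in KO and 859 in WT (-0.92). Pdk1, the kinase that keeps pyruvate out of the citric acid cycle, held 452 in KO and 703 in WT (-0.90). Ddit4, an inhibitor of mTORC1, held 1572 in KO and 1922 in WT (-0.55, interval -0.65 to -0.46). The intervals of these 6 genes all lay below 0.

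**Figure D2:**
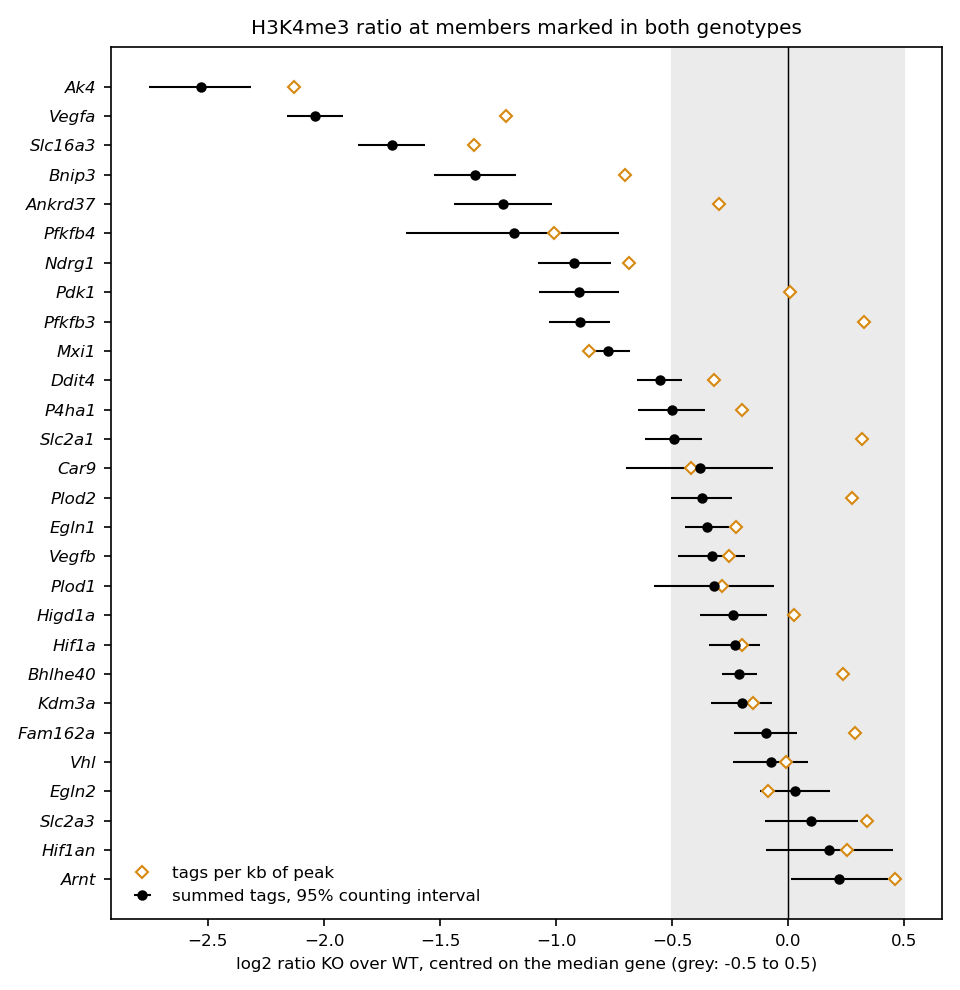
Centred log2 ratio of KO over WT for the 28 genes marked in both genotypes, ordered from lowest to highest. Filled points with bars show summed tags with 95% counting intervals, open diamonds show tags per kb of peak, and the grey band runs from -0.5 to 0.5. Ak4, Vegfa, Slc16a3 and Pfkfb4 lie below -1 on both measures, whereas Pdk1, Pfkfb3 and Slc2a1 move to 0 or above per kb.

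For Pfkfb3 and Mxi1, the targets past the threshold with peaks at more than 1 start, the starts differed from each other. Pfkfb3, the relative of Pfkfb4 that prevails in proliferating cells, was marked in WT at an outer and an inner start. The outer start held 763 tags in KO and 633 in WT, a ratio of 0.01 (interval -0.15 to 0.16). The inner start had no peak in KO and 552 tags over 3769 bp in WT (chromosome 2, 11500378 to 11504146). Summed over both, the ratio was -0.90. Mxi1, a Max partner that opposes Myc, had 1025 tags in KO and 1660 in WT at its outer start (-0.96, interval -1.07 to -0.85). At its inner start it held 442 in KO and 434 in WT (-0.24, interval -0.43 to -0.04). The sum over both was -0.78.

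The remaining targets did not pass the threshold. Bhlhe40, a transcriptional repressor with the broadest domain of the set, held 2905 tags in KO and 2801 in WT (-0.21). Kdm3a, a histone demethylase, held 974 in KO and 933 in WT (-0.20). Slc2a3, a second glucose transporter, held 473 in KO and 368 in WT (0.10) at the starts read here. A region inside Slc2a3, away from those starts, held more tags, 1012 in KO and 851 in WT (-0.01). Higd1a (-0.24) and Fam162a (-0.10), both mitochondrial proteins, and Vegfb (-0.33), a relative of Vegfa, were not called. The Fam162a peak also lay within 1 kb of the start of Ccdc58. Plod1 (-0.32) and Plod2 (-0.37), lysyl hydroxylases of collagen, and Car9 (-0.38), a carbonic anhydrase, were not called either. The nearest edge of the Car9 peak lay 0.567 kb from its TSS, inside the gene, and the peak lay within 1 kb of an annotated start of Arhgef39. Adm, which encodes adrenomedullin, was marked in neither genotype. For Bnip3l, a paralog of Bnip3, the tables give no strand. A peak over 1 of its ends held 646 tags in KO and 584 in WT (-0.12, interval -0.28 to 0.05).

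The promoters on which these results turn are shown as read from RefSeq (GRCm38.p6), 250 bases before to 50 bases after the first listed TSS, 5′ to 3′ on the strand of the gene. Capitals mark the core of the HIF response element, searched as ACGTG and GCGTG on both strands (CACGT and CACGC on the printed one), with overlapping matches run together. The first set holds the genes marked in WT alone that have an entry.
Egln3 (chr12:54203825-54204124, minus strand): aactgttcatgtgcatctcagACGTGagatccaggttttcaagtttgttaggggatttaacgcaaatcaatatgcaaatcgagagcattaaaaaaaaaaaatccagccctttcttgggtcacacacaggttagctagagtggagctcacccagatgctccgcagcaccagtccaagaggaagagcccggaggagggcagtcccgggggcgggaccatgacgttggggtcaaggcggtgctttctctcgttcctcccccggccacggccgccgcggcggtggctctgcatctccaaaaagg
P4ha2 (chr11:54100674-54100973, plus strand): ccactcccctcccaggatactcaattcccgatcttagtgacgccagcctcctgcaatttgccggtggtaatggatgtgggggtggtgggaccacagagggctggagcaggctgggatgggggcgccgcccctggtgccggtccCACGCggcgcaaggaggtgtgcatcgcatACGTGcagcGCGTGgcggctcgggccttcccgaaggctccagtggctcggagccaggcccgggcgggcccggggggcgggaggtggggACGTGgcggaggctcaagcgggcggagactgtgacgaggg

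The second set holds the 4 lowest ratios, of which Vegfa has no match in this window.
Ak4 (chr4:101419039-101419338, plus strand): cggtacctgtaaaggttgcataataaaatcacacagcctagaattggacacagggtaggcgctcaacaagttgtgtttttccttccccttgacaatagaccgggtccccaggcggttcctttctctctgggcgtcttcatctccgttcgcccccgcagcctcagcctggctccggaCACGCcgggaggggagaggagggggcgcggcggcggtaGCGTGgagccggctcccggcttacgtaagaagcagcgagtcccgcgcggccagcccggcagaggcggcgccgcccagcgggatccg
Vegfa (chr17:46032328-46032627, minus strand): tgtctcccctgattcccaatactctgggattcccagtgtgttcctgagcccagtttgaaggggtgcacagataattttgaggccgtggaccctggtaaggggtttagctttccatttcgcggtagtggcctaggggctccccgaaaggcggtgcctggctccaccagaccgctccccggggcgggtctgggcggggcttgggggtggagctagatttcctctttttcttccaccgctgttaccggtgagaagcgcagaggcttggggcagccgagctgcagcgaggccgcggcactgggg
Slc16a3 (chr11:120948817-120949116, plus strand): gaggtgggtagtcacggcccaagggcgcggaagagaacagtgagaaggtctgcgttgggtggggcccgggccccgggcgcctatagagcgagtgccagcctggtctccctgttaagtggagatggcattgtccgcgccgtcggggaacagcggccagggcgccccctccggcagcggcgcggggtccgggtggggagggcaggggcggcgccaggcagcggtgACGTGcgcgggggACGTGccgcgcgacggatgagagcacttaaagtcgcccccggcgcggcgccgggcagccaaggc
Bnip3 (chr7:138909457-138909756, minus strand): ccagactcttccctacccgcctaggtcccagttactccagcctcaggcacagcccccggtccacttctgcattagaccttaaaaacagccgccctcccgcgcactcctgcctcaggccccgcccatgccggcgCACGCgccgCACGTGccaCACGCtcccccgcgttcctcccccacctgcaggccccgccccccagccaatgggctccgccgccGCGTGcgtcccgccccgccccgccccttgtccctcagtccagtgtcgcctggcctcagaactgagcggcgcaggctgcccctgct

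The third set holds the 2 highest ratios, for comparison.
Arnt (chr3:95434140-95434439, plus strand): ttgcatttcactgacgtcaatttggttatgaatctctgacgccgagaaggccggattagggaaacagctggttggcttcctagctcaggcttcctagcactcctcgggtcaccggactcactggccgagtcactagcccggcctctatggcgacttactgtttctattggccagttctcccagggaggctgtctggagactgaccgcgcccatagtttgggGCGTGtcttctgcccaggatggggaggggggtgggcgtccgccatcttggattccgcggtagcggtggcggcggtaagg
Hif1an (chr19:44562604-44562903, plus strand): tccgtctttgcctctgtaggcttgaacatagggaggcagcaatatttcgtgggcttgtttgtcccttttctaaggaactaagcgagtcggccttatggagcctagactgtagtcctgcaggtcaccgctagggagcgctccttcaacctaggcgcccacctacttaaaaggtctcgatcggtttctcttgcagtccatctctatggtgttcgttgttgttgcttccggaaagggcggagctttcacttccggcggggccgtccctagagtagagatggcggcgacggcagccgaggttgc

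Matches to this core were common at the promoters of the pathway whether or not the mark differed. Of the 33 genes, 27 had a promoter entry (all but Epas1, Bnip3l, Ndrg1, Slc2a3, Bhlhe40 and Plod2), and 23 of these (85.2%) held at least 1 match in the first listed promoter. The share was 49.2% of 17492 protein-coding promoters and 64.8% of the 9636 whose gene was marked in 1 or both libraries. The core is GC-rich, and the median GC content was 65.3% at these genes, 56.3% over all promoters and 61.3% over marked ones. Known HIF targets make up 25 of the 33 genes, so this share is not independent of the choice of genes. Among genes below -0.5 or marked in WT alone 11 of 13 held a match, and among the others 12 of 14. With so few genes, nothing further is read from this split. Vegfa, Vhl, Hif1an and Mxi1 had none in the first listed window. At a further listed start Vegfa held 2 matches, and at a further one Mxi1 held 1. The Tcf/Lef motif, searched as CTTTGAA and CTTTGAT on both strands, was found at 1 of 27 promoters (Car9), against 5.66% of promoters of marked genes. A match describes letters and not binding.

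A sum of tags over peaks called separately in each library moves with their width, so width and density (tags per kb) were also examined. Density divides the tags by the called width in each library, so it is not independent of width. A peak called without flanks of few tags has a higher density, and a ratio near 0 per kb does not show an unchanged density over the same bases. At these genes the KO peaks were narrower. Over the 28 genes marked in both, the median log2 width ratio of KO over WT was -0.30, against -0.05 over all genes, and 26 were narrower in KO, as were 6733 of the 10349 genes in all. Width was lower by more than 0.5 on the log2 scale at 8 of 28 genes, a share of 28.6%, and at 3.60% of all genes. Per kb of peak, 7 of the 28 genes lay below -0.5 and 0 above, where the shares over all genes were 5.35% and 1.52%. Below -1 there were 4, with a share of 0.692% over all genes. The 7 were Ak4, Slc16a3, Vegfa, Pfkfb4 (-1.01), Mxi1 (-0.86), Bnip3 (-0.70) and Ndrg1 (-0.69). The genes were chosen with H3K4me3 values known, so nothing is read from the gaps between these shares in width or density. Pdk1 differed in width, with 1918 bp in KO and 3750 bp in WT, and a ratio of 0.01 per kb. Ankrd37 differed mostly in width, with 2079 bp in KO and 4124 bp in WT, and -0.30 per kb. At Slc2a1, Pfkfb3 and Plod2 the ratio was above 0 per kb, at 0.32, 0.33 and 0.27. Pfkfb3 is counted as narrower above because WT peaks at both starts are set against a KO peak at the outer start alone. Its outer peak spanned 2601 bp in KO and 2566 bp in WT.

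**Figure D3:**
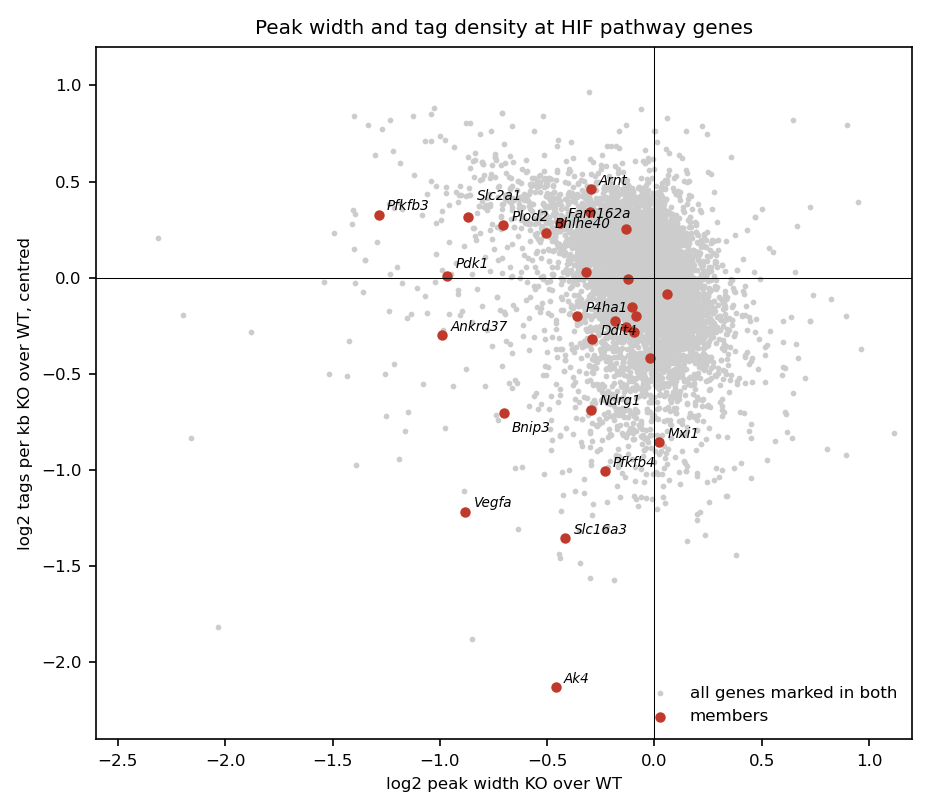
Log2 peak width (horizontal) against centred log2 tags per kb (vertical), each KO over WT, for all 10349 genes marked in both (grey, 6 lie outside the axes) and the 28 HIF pathway genes (red). Vegfa and Bnip3 are lower on both axes, Ak4, Slc16a3 and Mxi1 mainly in density, and Pdk1, Ankrd37 and Slc2a1 mainly in width. Pfkfb3 lies low in width because its inner start has a peak in WT alone.

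The narrowing lay mostly on the side of the gene body. Edges were compared at genes with a peak over the same TSS in each library, which took in the outer start of Pfkfb3 and the inner start of Mxi1. The WT peak reached a median of 350 bp further into the gene than the KO peak at 27 HIF pathway genes, against 40 bp at 10233 genes in all. On the upstream side the medians were 141 bp and 29 bp. The WT peak reached at least 1 kb further into the gene at 6 of the 27, a share of 22.2%, and at 1.92% of all genes. Edges follow from the called widths, which were open to the choice of genes, so nothing is read from these gaps. At Vegfa the peak ended 2720 bp into the gene in KO and 5036 bp in WT. At Slc2a1 it ended at 2238 bp in KO and 4406 bp in WT, at Ankrd37 at 1032 bp in KO and 2936 bp in WT, and at Bnip3 at 1761 bp in KO and 3490 bp in WT. The others were Pdk1, with 1195 bp in KO and 2799 bp in WT, and Bhlhe40, with 5915 bp in KO and 8493 bp in WT. The edges lay within 200 bp of each other on both sides at Vhl, Hif1an, Egln2, Plod1, Vegfb and the outer start of Pfkfb3. The same held at the called target Pfkfb4 and at the inner start of Mxi1. Fold enrichment over background was lower in the KO list as a whole (above), and its part in the narrower peaks was not tested.

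**Figure D4:**
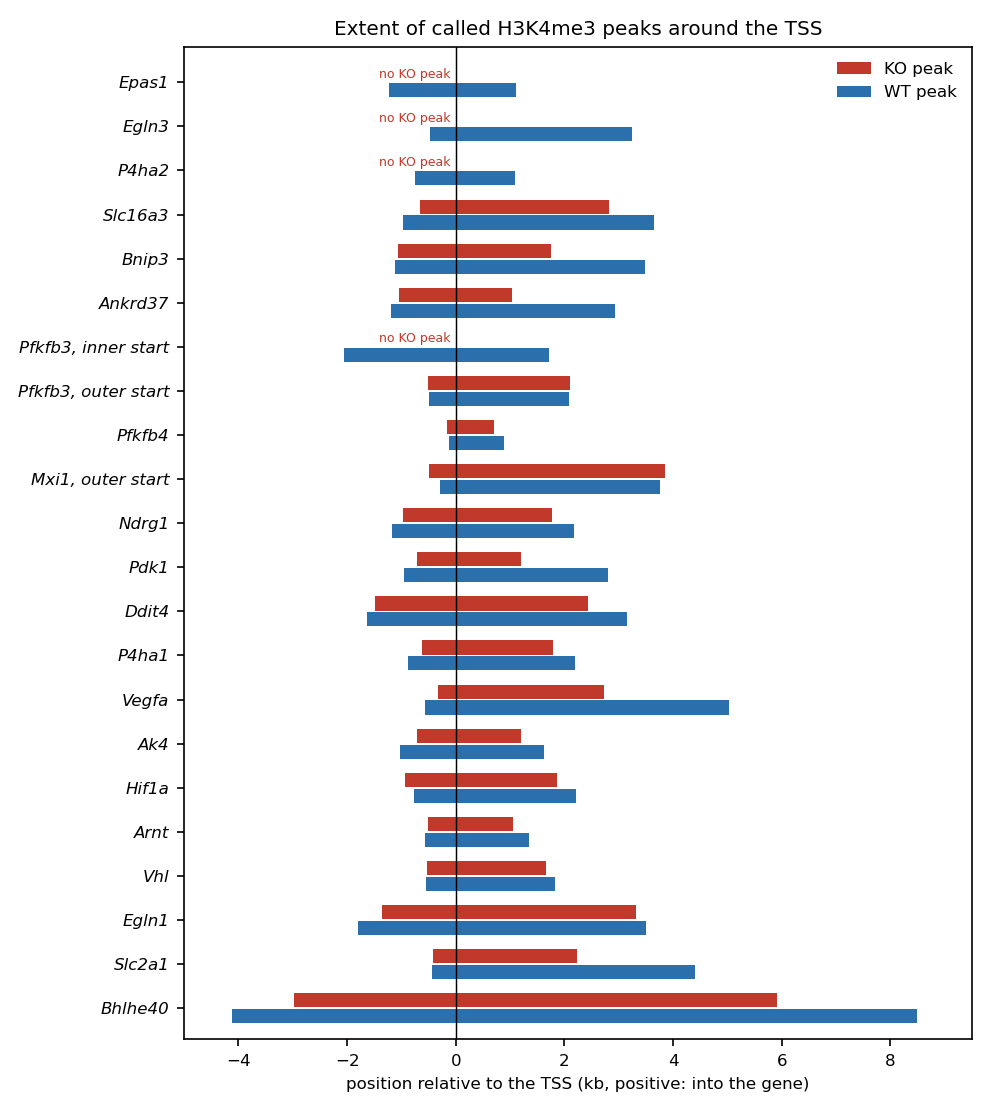
Extent of called H3K4me3 peaks relative to the TSS (kb, positive into the gene), KO above WT for each promoter. Shown are the 3 genes marked in WT alone, the 12 below -0.5, and for comparison Hif1a, Arnt, Vhl, Egln1, Slc2a1 and Bhlhe40. Both starts of Pfkfb3 are drawn, but only the outer start of Mxi1. At Vegfa, Ankrd37, Bnip3, Pdk1, Slc2a1 and Bhlhe40 the WT peak ends at least 1 kb further into the gene.

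Promoters of neighbouring genes were also read. In a reach of 20 kb from either end of the 33 genes lay 23 further H3K4me3 regions at starts of other genes, of which 21 were marked in both genotypes. Their median ratio was -0.04, with a range of -0.60 to 0.27, and 1 lay below -0.5 (Irak2, next to Vhl). The regions next to called genes were those of Ccdc57 near Slc16a3 (-0.27), Shisa5 and Trex1 near Pfkfb4 (-0.27 and -0.26) and Smndc1 near Mxi1 (-0.04), and none of these 4 was called. They lay 15.2 to 59.2 kb from the TSS of the HIF target.

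Other genes of the pathway, not among the 33, were then counted. The other HIF regulators, which include the ubiquitin ligase subunits Elob, Cul2 and Rbx1 and the coactivators Ep300 and Crebbp, lay close to the median gene. Of 16 listed, Hif3a was marked in neither and the start of Eloc was not known. Of 14 marked in both, 0 were called, the median ratio was -0.02 and the range was -0.23 to 0.31. Over all genes tested, 6.39% lay below -0.5 and 1.26% above 0.5. With so few genes, nothing is read from 0 of 14. Of 28 further known HIF targets, 19 were marked in both, 1 in WT alone (Car12, 67 tags) and 8 in neither. Over all genes the shares were 47.7%, 6.01% and 46.1%. Of the 19 marked in both, 5 lay below -0.5 and 0 above 0.5, beside the shares of 6.39% and 1.26%, with a median of -0.14. This list was also chosen with earlier results known, so nothing is read from the gap. The lowest were Cxcr4, a chemokine receptor, with 234 tags in KO and 379 in WT (-0.96), the hormone gene Stc2, with 212 in KO and 296 in WT (-0.74), and the histone demethylase gene Kdm4b, with 471 in KO and 605 in WT (-0.62). Cxcr4 (-0.81) and Stc2 (-0.57) stayed below -0.5 per kb, and Kdm4b (0.11) did not.

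Glycolytic enzyme genes, many of which HIF also induces, mostly had narrower peaks in KO, with a median near 0 per kb. All 14 marked in both had a ratio below 0, as had 5166 of the 10349 genes in all. Their median was -0.30. Only Gpi1, which encodes glucose phosphate isomerase, was called, with 937 tags in KO and 1279 in WT (-0.71). Over all genes tested, 6.39% lay below -0.5 and 1.26% above 0.5. Aldoc (209 tags) and Eno2 (51 tags) were marked in WT alone, as were 6.01% of all genes. Of the 14 genes, 12 had narrower peaks in KO, as had 6733 of the 10349 genes in all. Over the 14, the median width ratio was -0.41 on the log2 scale, and the WT peak reached a median of 1253 bp further into the gene. Per kb the median of the 14 was -0.0069, with a range of -0.215 to 0.415. Of them, 0 lay below -0.5 per kb, against 5.35% of all genes. With so few genes, nothing is read from these counts. Over the HIF targets among the 33 genes the median was -0.53 by tags and -0.27 per kb. The difference between the lists was not tested.

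**Figure D5:**
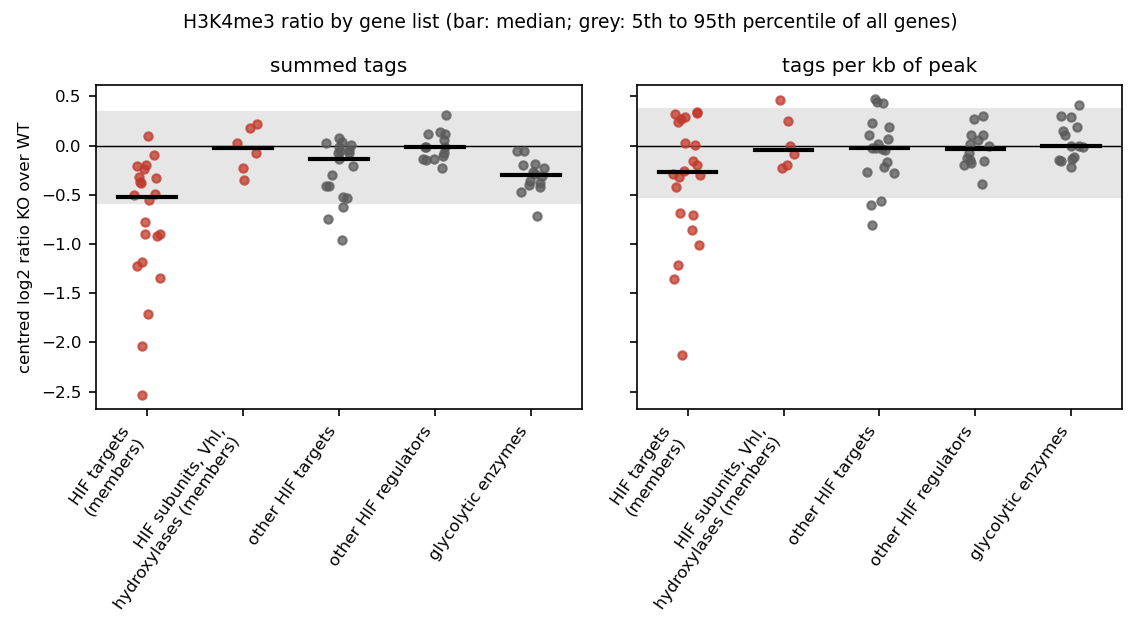
Centred log2 ratio of KO over WT by gene list, by summed tags (left) and per kb of peak (right), with 1 point per gene and a bar at the median. The grey band spans the 5th to 95th percentile of all genes, -0.58 to 0.34 by tags and -0.52 to 0.38 per kb. HIF targets reach down to -2.53 by tags and -2.13 per kb, the glycolytic enzymes lie below 0 by tags and around 0 per kb, and the other HIF regulators lie around 0 on both.

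The Tcf1 antibody libraries gave a readout that the choice of genes did not name. No WT Tcf1 peak lay in any of the 33 genes or within 50 kb of 1, where the share over all genes was 4.39%, or 3.87% for WT peaks that overlap no KO peak. The nearest was 61.8 kb from Fam162a and had a KO peak at the same distance. In KO, from mice with no intact Tcf7, 4 of the 33 genes had a Tcf1 peak within 50 kb, against 20.6% of all genes. They were Egln1 (6.61 kb away), Ak4 (11.0 kb), Plod2 (36.2 kb) and Kdm3a (38.8 kb). These peaks held 10 to 19 tags with FDRs of 68.3 to 100%, and none overlapped an H3K4me3 peak in either genotype. The WT Tcf1 list held 866 peaks with a median FDR of 26.6%, and the KO list 5139 with a median FDR of 96.9%. In these lists, no Tcf1 peak specific to WT was called within 50 kb of the genes whose H3K4me3 was lower in KO. With a share of 3.87% over all genes and so few genes here, nothing is read from this count.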

How the data were processed

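Per the submitters' processing notes, tools included MACS 1.4 and Bowtie2 2.1.0. The notes list GRCh37 beside GRCm38 and mm10 and give no build a role. Positions were read as GRCm38/mm10. The sources used here state neither the control track nor the peak calling settings. Peaks were called per library, giving 4 deposited lists. The input DNA samples were not analysed here.

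Tags are deposited counts per peak, not scaled to depth. Per the file headers, the deposited score is the −log10 of the p-value multiplied by 10. The deposited fold enrichment is a ratio over background, and the deposited FDR is in percent. Rows were reduced to distinct peaks, and starts were converted to count from 1.

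Starts came from a RefSeq promoter table (GRCm38.p6), Ensembl features in the lists and RefSeq gene ends. Of 21887 protein-coding genes on the placed chromosomes, 1885 had no strand, and 198 of these were left out because H3K4me3 was called within 2.5 kb of an end. Ratios and intervals (Clopper-Pearson on the 2 counts) were computed on all genes and tested on simulated counts. Full values are given for subunits, Vhl, hydroxylases, genes marked in 1 genotype, genes beyond 0.5 on a measure and genes near a Tcf1 peak. Of each other list, up to 3 called genes per direction were named. Genes given as examples of regulators, markers, neighbours or uncalled targets were picked with their values in view. The 33 genes, the lists and the tests were chosen with earlier results of these data known. Alternatives were windows of 0 and 2.5 kb, FDR of at most 1%, scores of at least 100, merged regions of both libraries, the single nearest peak, lists of equal length, tags per kb, scaling to total tags, a threshold of 1, and Tcf1 distances of 10 and 100 kb. Gene ends alone as starts were added after seeing the data. Computation used pandas 2.3.3 and numpy 2.4.6 under Python 3.11.15, intervals scipy 1.17.1, and figures matplotlib 3.10.9.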

Additional observations from a re-analysis of the deposited data

How the results depend on the processing

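Per kb of peak, 7 of the 28 genes marked in both lay below -0.5 in place of 12, all 7 of them targets. The median was -0.20 over these 28 genes and -0.27 over the HIF targets among them. Further HIF targets below -0.5 were 3 in place of 5, and glycolytic enzymes had a median of -0.0069 with 0 below -0.5. The share below -0.5 over all genes was 5.35% per kb. Of the called genes, Pdk1 (0.0088) and Pfkfb3 (0.33) changed sign there. The Pfkfb3 value per kb sets WT peaks at both starts against the outer KO peak alone. Of those not called, Slc2a1 (0.32), Plod2 (0.27), Bhlhe40 (0.23), Fam162a (0.29), Higd1a (0.03) and Egln2 (-0.09) changed sign. Pfkfb3 was 0.20 with the single nearest peak, which sets the outer start in KO against the inner start in WT. Mxi1 was -0.24 there, and Slc2a1 was -0.63 with a window of 2.5 kb, past the threshold. With a threshold of 1, 6 genes lay below. With FDR of at most 1%, 6 genes were marked in WT alone, 4 of them targets, because the KO peaks of Ak4, Pfkfb4 and Car9 drop out. With scores of at least 100, 2 targets were. Shares over all genes marked in WT alone are not given for these filters, so nothing is read from these counts. Scaling to total tags moves all genes by 0.08. It left 10 of the 28 genes marked in both below -0.5, without Ddit4 (-0.47) and P4ha1 (-0.42), and 3 further HIF targets. The share over all genes was 4.95% with this scaling. Merged regions sum the same called tags, so they and their values per kb (the shared width cancels) gave the 33 genes nearly the same ratios, and they do not fill in flanks that were not called. Ak4, Vegfa, Slc16a3, Bnip3, Ndrg1 and Pfkfb4 stayed below -0.5 under every alternative that gave them a ratio. KO Tcf1 peaks lay near 1 gene at 10 kb, 9 at 100 kb and 0 with scores of at least 100, and a WT Tcf1 peak near 1 gene at 100 kb. Shares over all genes are not given at these Tcf1 settings, so nothing is read from these counts. No paired analysis was possible because each group held 1 library. Depth is unknown, so an uncalled peak is no measure of absence.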

Other observations

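H3K4me3 regions away from the starts read here for these genes were also present. Inside Slc2a3, 58.6 kb from the nearest start read here, a region held 1012 tags in KO and 851 in WT. Its centred ratio was -0.01 (interval -0.15 to 0.12), and it held more tags than the peak at the starts read here. Whether it marks a further start of Slc2a3 was not tested. Regions called in WT alone lay inside Slc2a3 (87 tags), 1.75 kb upstream of the TSS of Slc2a1 (115 tags), just beyond the end of Hif1a (157 tags) and at the starts of Sbf2, 12.3 kb from the TSS of Adm (95 tags), and Sec31b, 16.6 kb from the TSS of Hif1an (87 tags). Inside Pfkfb3, a region held 101 tags in KO and 83 in WT (0.02), with an FDR of 22.4% in KO. These genes were named after their values were seen.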
